A study of Mus musculus with 12 samples.

Results

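The CXC chemokines are small secreted proteins that steer leukocytes through G protein-coupled receptors. In mouse, Cxcl1, Cxcl2, Cxcl3 and Cxcl5 carry a glutamate-leucine-arginine motif ahead of the paired cysteines and attract neutrophils through Cxcr2, whereas Cxcl9, Cxcl10 and Cxcl11 are interferon-inducible ligands of Cxcr3 that attract activated T cells. Cxcl16 differs from the others in being made as a membrane-anchored protein that binds Cxcr6 and can be shed by the metalloproteases Adam10 and Adam17. In microglia, bacterial lipopolysaccharide (LPS) signals through Tlr4 along a Myd88 branch that activates NFkB and a Ticam1 branch that leads to type I interferon, and chemokine genes are among the known targets of both.

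These 8 genes were chosen by name as the inflammatory CXC ligands and account for 8 of the 18194 genes with a probe set of their own, through 13 probe sets. Of BV-2 cells, an immortalized mouse microglial line, 4 conditions were compared on Affymetrix Mouse Genome 430 2.0 arrays, with 3 arrays from independent RNAs in each. Cells received 50 µM luteolin + 50 ng/ml LPS, 50 ng/ml LPS alone, 50 µM luteolin (a plant flavonoid, dissolved in DMSO) alone, or neither (control) for 24 h. The sample labels give the joint treatment as luteolin with LPS, whereas the study's methods write LPS in place of luteolin for it, and the labels' extraction protocol names PUER cells while their treatment protocol names BV-2. Levels are robust multichip average (RMA) signals on a linear scale, and a signal of 50 was the study's minimum. Cxcl1, Cxcl2, Cxcl10 and Cxcl16 had a geometric mean of 50 or more in at least 1 condition and were among the 12071 genes tested. Cxcl3, Cxcl5, Cxcl9 and Cxcl11 did not reach it and were not tested. Cxcl2 and Cxcl10 reached it only through the LPS-treated conditions in which they are high, so counts over the 4 tested members are set in part by this minimum.

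All 10 microglia markers were among the genes tested. Cd68 lay between 13177 and 18782 and Tyrobp between 7948 and 13948, and the macrophage marker Aif1 reached 50 on 11 arrays. Luteolin + LPS array 2 stood apart, since Aif1 (33.5), Ptprc (2795), Fcer1g (5887) and Itgam (209.9) had their lowest values of the 12 arrays there, 4 of 10 markers. LPS array 3 held the lowest values for 3 of 10, Spi1 (937.8), Trem2 (1659) and Tyrobp (7948). The summed signal of the 10 markers was 64118, 45708 and 55670 in luteolin + LPS arrays, against 63049, 56357 and 52498 in LPS arrays, and it spanned 53604 to 61954 in luteolin and 56175 to 60251 in control arrays. The lowest sum was that of luteolin + LPS array 2, and some results below are given with and without it. Of 21 markers of neurons, astrocytes, oligodendrocytes, fibroblasts, endothelium, neutrophils and T cells, 8 were tested and 0 passed the test in any comparison. Of all 12071 genes tested, 0 to 505 passed, depending on the comparison. The neuron marker Rbfox3 measured 187 to 234 and the T cell marker Cd4 97.1 to 147, so a signal above 50 does not by itself show expression. Of the microglia markers, Adgre1 was higher in LPS than in control cells by 1.29 on the log2 scale (limma, adjusted p = 0.0310), while Trem2 was at -0.86 (adjusted p = 0.0657) and Tyrobp at -0.53 (0.0649). With replicate number as a block, Trem2 (0.00819) and Tyrobp (0.0109) were called lower there, Trem2 (-0.91, 0.00879) lower in luteolin + LPS than in luteolin cells, and Aif1 (-1.90, 0.0455) lower in luteolin + LPS than in LPS cells. Without luteolin + LPS array 2, and with no block, Aif1 was at -1.49 in the latter comparison (limma adjusted p = 0.224). Adgre1 was then called higher in luteolin + LPS than in luteolin cells (1.32, 0.00170), which it was not with that array. The part of these markers in the chemokine values was not tested. Median array signal ranged from 52.2 to 56.4. Since each array pools a whole culture, fewer producing cells and less RNA per cell cannot be told apart.

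Promoter sequences are shown for Cxcl10 and Cxcl2, whose signal differed most between conditions, and for the neighbouring Cxcl1 and Cxcl3, which resemble Cxcl2 in sequence. They run from 250 bases before to 50 bases after the RefSeq transcription start in build GRCm38.p6, 5′ to 3′ on the gene's strand. All 4 lie on chromosome 5, Cxcl10 on the minus strand at chr5:92348840-92349139, and on the plus strand Cxcl2 at chr5:90903649-90903948, Cxcl1 at chr5:90890995-90891294 and Cxcl3 at chr5:90785851-90786150. Capitals mark matches to the NFkB consensus and, as the first capital run of Cxcl10, to the interferon-stimulated response element, searched as 2 GAAA units with 2 bases between them.
Cxcl10: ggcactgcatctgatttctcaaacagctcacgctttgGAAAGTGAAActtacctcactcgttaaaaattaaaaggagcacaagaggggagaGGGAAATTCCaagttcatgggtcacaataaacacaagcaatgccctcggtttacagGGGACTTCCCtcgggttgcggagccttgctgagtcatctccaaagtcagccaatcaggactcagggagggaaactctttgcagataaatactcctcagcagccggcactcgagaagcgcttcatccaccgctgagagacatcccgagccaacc
Cxcl2: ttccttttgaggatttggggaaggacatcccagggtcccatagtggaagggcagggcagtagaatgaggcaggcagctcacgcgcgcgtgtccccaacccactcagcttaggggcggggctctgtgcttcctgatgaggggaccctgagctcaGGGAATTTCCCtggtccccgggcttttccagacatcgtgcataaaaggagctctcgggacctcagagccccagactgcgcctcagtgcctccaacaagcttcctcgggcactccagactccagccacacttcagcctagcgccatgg
Cxcl1: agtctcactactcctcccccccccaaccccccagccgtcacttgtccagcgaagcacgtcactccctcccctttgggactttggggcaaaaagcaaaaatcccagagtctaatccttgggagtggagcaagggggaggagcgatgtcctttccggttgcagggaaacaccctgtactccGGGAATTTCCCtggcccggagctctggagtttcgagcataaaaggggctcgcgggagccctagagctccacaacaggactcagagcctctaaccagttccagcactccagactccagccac
Cxcl3: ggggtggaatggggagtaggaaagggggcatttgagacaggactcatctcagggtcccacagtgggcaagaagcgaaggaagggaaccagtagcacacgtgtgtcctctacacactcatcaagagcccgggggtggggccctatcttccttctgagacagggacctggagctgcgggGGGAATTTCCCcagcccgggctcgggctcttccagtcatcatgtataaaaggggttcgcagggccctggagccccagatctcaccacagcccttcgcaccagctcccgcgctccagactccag

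Both strands were searched. The Cxcl2 matches lay 97 to 88 bases before the start on the gene's strand and 96 to 87 on the other. The same 11 bases, GGGAATTTCCC, occurred in Cxcl1 and Cxcl3, and in all of these genes the matches on both strands overlap. Cxcl10 held 2 NFkB matches, at 159 to 150 and at 103 to 94 bases before the start, plus the interferon element at 213 to 204, and none of these overlap. The NFkB consensus occurred in 4.51% and the interferon element in 3.44% of 32851 promoters of the same length. Cxcl9 had neither. Sequences were found for 5 of the 8 genes, and not for Cxcl5, Cxcl11 and Cxcl16.

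**Figure D1:**
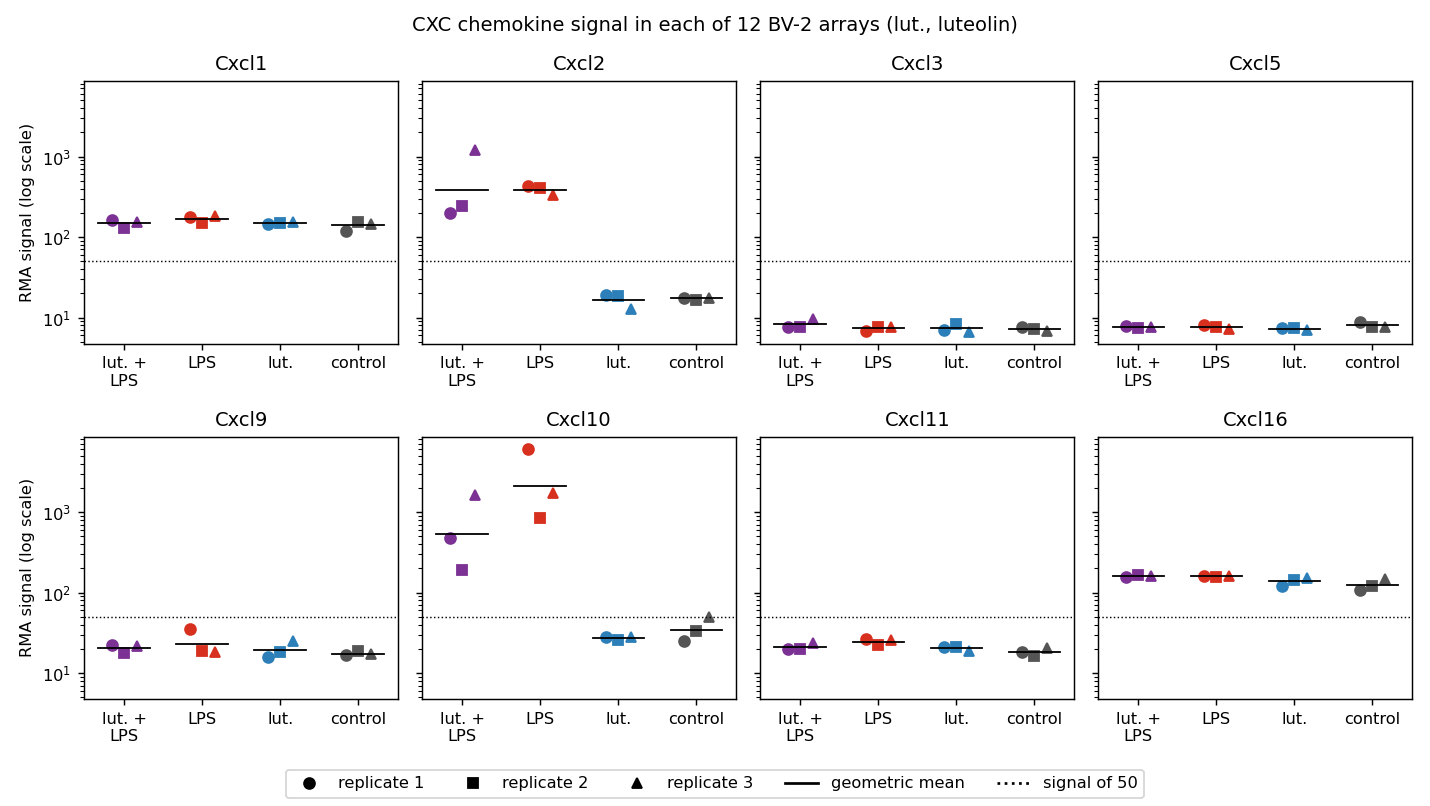
RMA signal (log scale) of the 8 CXC chemokines in each of the 12 arrays, by condition, using the probe set kept for each gene. Bars are geometric means of 3 arrays and the dotted line is a signal of 50. Cxcl2 and Cxcl10 were high in every LPS-treated array, Cxcl1 and Cxcl16 lay above 50 throughout, and the others stayed below 50 in every array.

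LPS against control asks which chemokines the endotoxin alone raised. Cxcl10 and Cxcl2 rose many-fold, and the estimates of the other tested members were 0.35 and 0.28 on the log2 scale. Cxcl10, an interferon-inducible Cxcr3 ligand, measured 6158, 837 and 1741 in LPS arrays 1 to 3, against 25.2, 33.1 and 50.4 in control arrays. Every LPS array lay far above every control array, and LPS array 1 stood well above the other LPS arrays. The limma estimate was 5.90 on the log2 scale (SE 0.77, 95% interval 4.21 to 7.60), 59.8-fold, with an adjusted p of 0.00233. It ranked 11 of 12071 by size of increase. Without LPS array 1 the estimate was 5.12 (34.7-fold, adjusted p = 0.00551), and without LPS array 2 it was 6.56 (94.2-fold, 0.00364).

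Cxcl2, a neutrophil attractant, measured 425, 406 and 334 in LPS arrays 1 to 3, against 17.6, 16.6 and 17.6 in control arrays. The LPS arrays were close to each other and none overlapped with control. The change was 4.49 on the log2 scale (SE 0.52, 95% interval 3.35 to 5.63), 22.4-fold, limma adjusted p = 0.00120. Where every signal under 50 was set to 50, so that the fold becomes a lower bound, Cxcl2 was at least 7.72-fold higher (adjusted p = 0.0109), and Cxcl10, with 1 control array above 50, was 41.5-fold higher (adjusted p = 0.00375) and 24.1-fold without LPS array 1.

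Of the 8 members, 4 were tested and 2 of these passed the test as higher, where 1.96% of all 12071 genes were called higher. Both had entered the test through their LPS signal, so nothing is read from their number against that share. Leaving out all arrays of replicate 2 gave an adjusted p of 0.0619 for Cxcl2, and leaving out all of replicate 3 gave 0.0679 for Cxcl10, each above the threshold of 0.05.

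Cxcl16, the membrane-anchored ligand of Cxcr6, measured 159, 156 and 161 in LPS arrays against 107, 121 and 148 in control arrays. The groups did not overlap, as for 11.5% of the genes tested in that direction. The estimate was 0.35 (95% interval 0.060 to 0.64, adjusted p = 0.163), which missed the threshold. The second Cxcl16 probe set, between 29.6 and 50.5 on all arrays, was not tested and differed by 0.43. Cxcl1, also a neutrophil attractant, measured 179.5, 148 and 183.5 in LPS arrays against 119.7, 155 and 146 in control arrays, and its groups overlapped. Its estimate was 0.28 (95% interval -0.025 to 0.59, adjusted p = 0.282).

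The 3 Cxcl1 probe sets did not behave alike. The one kept for the gene, whose name ends in _x_at and which can cross-hybridize, and the one ending in _s_at stayed above 50 on all 12 arrays and differed by 0.28 and 0.09 between LPS and control. The remaining set, the only one the annotation ties to a RefSeq transcript, ranged from 10.1 to 14.0, under 50 on all 12 arrays, LPS-treated ones included.

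The remaining ligands stayed under the minimum. Cxcl3 ranged from 6.7 to 9.7 and Cxcl5 from 6.9 to 8.7, and neither showed a separated LPS group. Cxcl9 was highest on LPS array 1, at 35.4 on its brighter probe set, and lower on every other array. Cxcl11 measured 26.3, 22.2 and 25.5 in LPS arrays against 18.4, 16.3 and 20.5 in control arrays. These groups did not overlap, as for 11.5% of the genes tested in that direction, but all values lay under 50. The second Cxcl11 probe set, at 6.8 to 8.3 on all arrays, differed by 0.04 and overlapped.

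**Figure D2:**
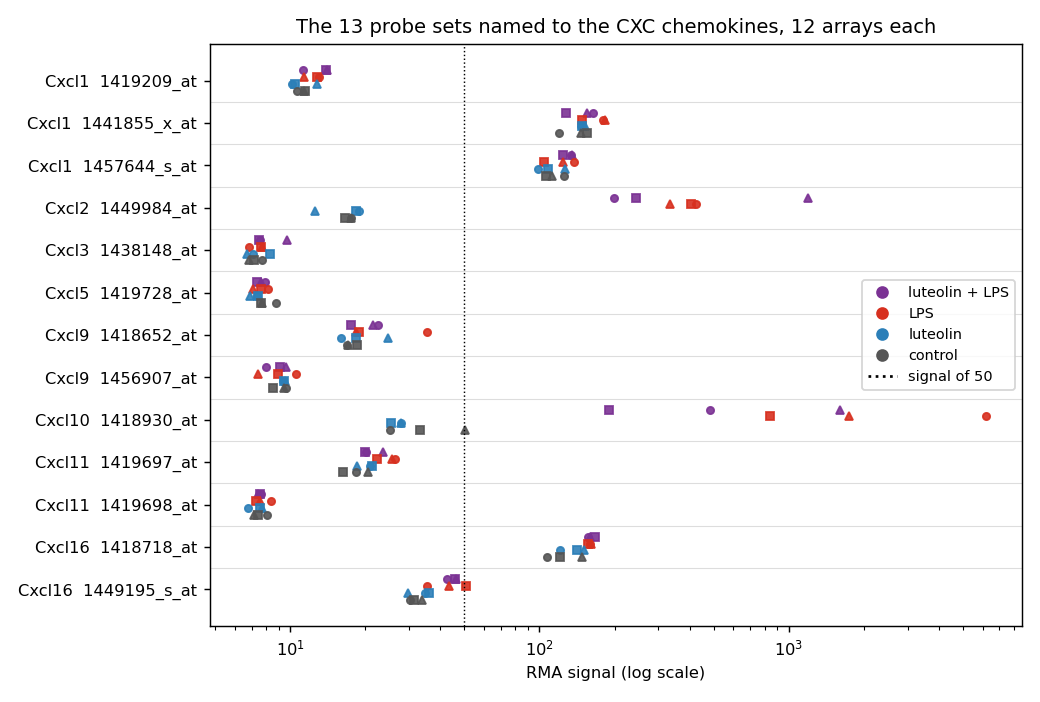
RMA signal (log scale) of all 13 probe sets named to the CXC chemokines on 12 arrays, coloured by condition, with replicate numbers as circle (1), square (2) and triangle (3). The 3 Cxcl1 probe sets differ in level, 1 of them under 50 on every array.

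The same LPS exposure in the presence of luteolin asks whether the response differed. Cxcl2 and Cxcl10 were again the only members called, 2 of 4 tested, where 0.804% of all genes were called higher and the same limit on the count applies. Cxcl2 measured 199.6, 245 and 1192 in luteolin + LPS arrays, against 18.8, 18.3 and 12.6 in luteolin arrays. Replicate 3 of luteolin + LPS gave the highest Cxcl2 value of the 12 arrays. The estimate was 4.57 (SE 0.52, limma adjusted p = 0.00125), 23.8-fold. Without that array it was 3.76 (13.6-fold). With signals under 50 set to 50, Cxcl2 was at least 7.75-fold higher, and at least 4.42-fold without that array (adjusted p = 3.15e-04).

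Cxcl10 measured 482, 189.8 and 1613 in luteolin + LPS arrays, against 27.7, 25.5 and 27.9 in luteolin arrays. Every luteolin + LPS array exceeded every luteolin array. The estimate was 4.29 (SE 0.77, 95% interval 2.60 to 5.98), 19.6-fold, adjusted p = 0.0193. Without luteolin + LPS array 2 it was 5.03 (32.6-fold, adjusted p = 0.00728). This call was lost without any 1 luteolin array (adjusted p from 0.0702 to 0.0928), without luteolin + LPS replicate 3 (3.48, 11.2-fold, adjusted p = 0.0576), without all of replicate 2 (adjusted p = 0.0587) or 3 (0.555), in a fit of those conditions alone (0.0544), and with signals under 50 set to 50, where the bound was at least 10.6-fold (0.0525), or at least 6.05-fold without luteolin + LPS replicate 3 (0.147). Without all of replicate 2 the Cxcl2 adjusted p was 0.0570.

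Cxcl16 measured 156, 167 and 159.8 in luteolin + LPS arrays against 121, 141 and 152 in luteolin arrays, without overlap, as for 7.36% of the genes tested in that direction. Its estimate was 0.23 (adjusted p = 0.594). Cxcl1 measured 165, 128 and 155 in luteolin + LPS arrays against 147, 149 and 153 in luteolin arrays, an overlapping pair with an estimate of -0.01 (adjusted p = 0.993).

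The joint treatment against LPS alone asks whether luteolin changed chemokine levels in activated cells. No member passed the test, 0 of 4, against 0.505% of all genes called in either direction. For Cxcl10, the estimate was -1.98 (SE 0.77, 95% interval -3.67 to -0.28), 0.254-fold, with an unadjusted p of 0.0263 and a limma adjusted p of 0.265. It was 44th from the lowest of 12071. Within replicate numbers, luteolin + LPS minus LPS was -3.67, -2.14 and -0.11, so every replicate was lower with luteolin, by very unequal amounts. In replicate 3 the 2 arrays differed by little. The conditions overlapped, since the highest luteolin + LPS array, 1613, exceeded the 837 of LPS array 2. The estimate ranged from -2.91 to -0.70 over alternative settings, and 0 of 27 reached the threshold. Without luteolin + LPS array 2, the array low in microglia markers, it was -1.24 (adjusted p = 0.644). Without LPS array 1 it was -1.19 (adjusted p = 0.467). Apart from the arrays, the paper measured Cxcl10 mRNA by quantitative RT-PCR in LPS-treated BV-2 cells. It reports that luteolin, given before LPS in that assay, lowered Cxcl10 in a dose-dependent manner. Those measurements are not among the values used here.

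The mean difference of Cxcl2 was 0.005 (SE 0.52, 95% interval -1.14 to 1.15, adjusted p = 0.998). The within-replicate differences, -1.09, -0.73 and 1.84, had opposite signs. Without luteolin + LPS replicate 3 the estimate was -0.81 (adjusted p = 0.0805), and the same omission with signals under 50 set to 50 gave an adjusted p of 0.0330. Without luteolin + LPS array 2 it was 0.34 (adjusted p = 0.913). In luteolin + LPS cells, the SD of log2 signal was 1.41 for Cxcl2 and 1.55 for Cxcl10, against 0.19 and 1.46 in LPS cells. The Cxcl16 estimate was 0.02 (95% interval -0.27 to 0.31), and that of Cxcl1 was -0.19 (-0.50 to 0.11). None of the 8 members separated the conditions without overlap. Of the genes tested, which leave out the members below the minimum signal, 8.04% did so upwards and 8.04% downwards. Below the minimum signal, Cxcl11 measured 20.2, 19.95 and 23.6 in luteolin + LPS arrays against 26.3, 22.2 and 25.5 in LPS arrays, lower in each replicate but overlapping. The highest Cxcl3 value, 9.70, was on luteolin + LPS array 3, the array with the highest Cxcl2.

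**Figure D3:**
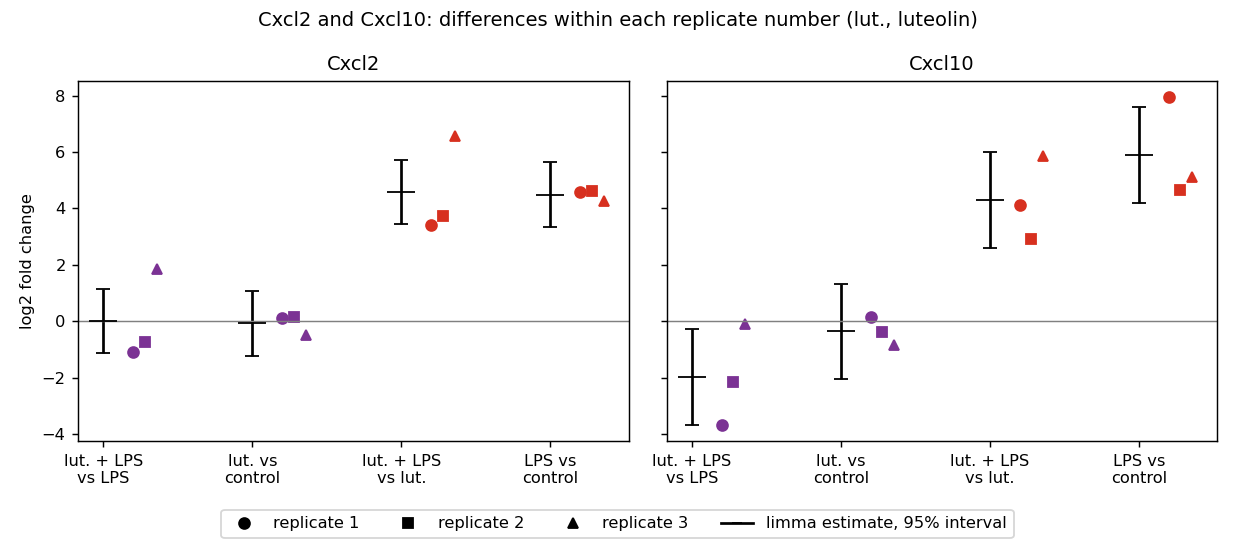
Log2 fold changes of Cxcl2 and Cxcl10 in 4 comparisons, as limma estimates with 95% intervals (black) and as differences within each replicate number (symbols). For Cxcl10, luteolin + LPS minus LPS was below 0 in all 3 replicates, from -3.67 to -0.11, whereas for Cxcl2 replicate 3 was at 1.84 and the others were negative.

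Luteolin against control asks what the flavonoid did in resting cells. Cxcl10 measured 27.7, 25.5 and 27.9 in luteolin arrays, against 25.2, 33.1 and 50.4 in control arrays. The groups overlapped, with an estimate of -0.36 (95% interval -2.06 to 1.33, adjusted p = 0.953). Cxcl2, at 12.6 to 18.8 in luteolin and 16.6 to 17.6 in control arrays, gave an estimate of -0.08 (95% interval -1.22 to 1.06). Both genes lay mostly under 50 here. The estimates of Cxcl1 and Cxcl16 were 0.10 and 0.14, and 0 of 4 members passed, as did 0% of all genes (limma), with 1097 at an unadjusted p below 0.05. Cxcl5, untested and under 50, was lower in each luteolin array than in each control array, a pattern shown by 11.3% of the genes tested.

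The test of the difference between the responses, luteolin + LPS over luteolin less LPS over control, was past the threshold for 0 of 4 members and 0% of all genes. Cxcl10 gave -1.61 (SE 1.09, 95% interval -4.01 to 0.78, adjusted p = 0.999) and Cxcl2 0.08 (-1.53 to 1.70). Without luteolin + LPS array 2 the Cxcl10 value was -0.87. The Cxcl10 responses with and without luteolin were therefore not shown to differ, within this wide interval.

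Levels of other genes in the same system were taken from lists of related genes. Of the other CXC ligands, 5 of 7 were tested and none was called in any comparison, where 0 to 505 of all 12071 genes were called. Pf4, a platelet-type CXC ligand, was at 2671 to 4264 on all arrays with an estimate of -0.22 in LPS against control (adjusted p = 0.422). Of the receptors, Cxcr2 and Cxcr6 lay under 50 on every array, and Cxcr3, the receptor for Cxcl9 to Cxcl11, measured 40.7 to 83.5. Cxcr4, the receptor for Cxcl12, measured 184, 187 and 78.3 in luteolin + LPS arrays, against 1156, 634 and 613 in luteolin arrays, and 347, 90.3 and 85.0 in LPS arrays, against 828, 358 and 386 in control arrays. The LPS-treated arrays lay below the arrays without LPS in both settings, as for 10.2% of the genes tested with luteolin and 16.1% without. The estimates were -2.46 with luteolin (adjusted p = 0.0568) and -1.81 without (adjusted p = 0.102), neither past the threshold. With replicate number as a block the adjusted p was 0.00292 with luteolin and 0.00861 without.

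Of the proteases, Adam17, which sheds Cxcl16, rose by 0.65 in luteolin + LPS against luteolin (adjusted p = 0.0370). There 1 of 4 tested was called, where 0.804% of all genes were called higher. The Adam17 call was lost without luteolin + LPS array 2 (0.69, adjusted p = 0.0586). Adam17 measured 2969.8, 2724 and 2898 in luteolin + LPS arrays against 1563, 2098 and 1849.5 in luteolin arrays. These groups did not overlap, as for 7.36% of the genes tested in that direction. In LPS against control, the Adam10 estimate was -0.47 (adjusted p = 0.0726), and with the replicate block Adam10 was lower (0.0493) and Adam17 higher by 0.42 (0.0477). The Mmp9 estimate there was 1.19 (limma adjusted p = 0.0753), and it was called higher without luteolin + LPS array 2 (0.0354).

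Of 8 tested genes of the NFkB arm, 3 rose both in LPS against control and in luteolin + LPS against luteolin. Of all 12071 genes, 1.96% and 0.804% were called higher in these comparisons, in that order. The same shares stand beside the interferon arm counts below. Without luteolin, the LPS coreceptor Cd14 rose by 2.22, Nfkbiz by 2.68 and the NFkB inhibitor Nfkbia by 2.45 on the log2 scale (highest adjusted p 0.00120). With luteolin present they rose by 1.62, 3.14 and 2.56 in the same order (highest adjusted p 0.0101). The Cd14 geometric mean was 1266 in control, 2992 in luteolin, 5892 in LPS and 9189 in luteolin + LPS cells. Its luteolin estimates were 1.24 against control (limma adjusted p = 0.194) and 0.64 in luteolin + LPS against LPS (0.272), neither called. Tlr4 was at -0.58 in luteolin + LPS against luteolin (limma adjusted p = 0.300), and was called lower with the replicate block (0.0444). Of 9 tested genes of the interferon arm, 2 rose in LPS against control, Irf7 by 4.57 (adjusted p = 0.0263) and Irf9 by 1.94 (adjusted p = 0.0431), and 0 were called in luteolin + LPS against luteolin, where Irf7 was at 2.51 (adjusted p = 0.316). That 0 rested on luteolin + LPS array 2, for without it Irf7 (3.90, adjusted p = 0.00728), Irf9 (1.85, 0.0125) and Irf1 (1.20, 0.0145) were called higher. The same omission called Irf7, Irf9 and Irf1 (1.18, adjusted p = 0.00510) higher in LPS against control too. It called 229 of all genes in either direction in luteolin + LPS against luteolin, and 660 in LPS against control. With the replicate block, 4 interferon arm genes rose in LPS against control. The block called 519 of all genes higher there, against 237 without it. Ifnar2, a subunit of the type I interferon receptor, rose by 0.51 in luteolin + LPS against luteolin with the block (0.0295). There the block called 210 of all genes higher, against 97 without it. In the interaction, 0 interferon arm genes were called. Among mRNA decay factors, Zc3h12a, an endonuclease that destabilizes inflammatory transcripts, rose by 1.33 without luteolin (adjusted p = 0.0433) and by 2.23 with it (0.00500).

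Irf7 measured 2913, 82.8 and 759 in luteolin + LPS arrays, against 5054, 2036 and 1649 in LPS arrays. Array 2 of the joint treatment lay inside the range of cells without LPS, 78.5 to 135. The joint treatment's lowest Cxcl10 value, 189.8, was on that same array, whereas its highest Cxcl10 and Cxcl2 values were on array 3, where Irf7 was intermediate. Nfkbia measured 10075, 7149 and 11856 in luteolin + LPS arrays, against 8671, 9326 and 10022 in LPS arrays, and so overlapped. Whether the differences between these arrays bear on the chemokine values was not tested.

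**Figure D4:**
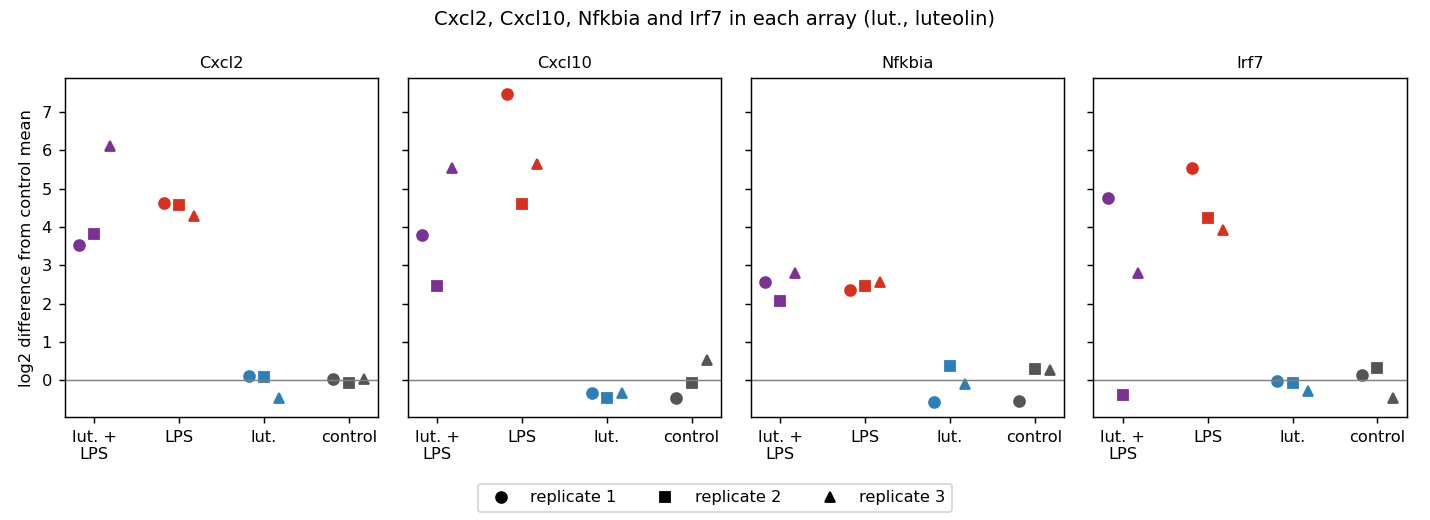
Log2 difference from the control mean of Cxcl2, Cxcl10, Nfkbia and Irf7 in each array, with replicate numbers as symbols and 0 as the control mean. In luteolin + LPS, Irf7 was lowest in replicate 2, as was Cxcl10, while Cxcl2 and Cxcl10 were both highest in replicate 3.

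The genes whose relative pattern lay nearest to Cxcl2 and Cxcl10 over the 12 arrays were found by the mean absolute difference between log2 values, each gene taken relative to its own control mean. For Cxcl2 these were Il1b (0.31), Traf1 (0.54) and Ptgs2 (0.66), and for Cxcl10 they were Il1b (0.59), Traf1 (0.69) and Gbp3 (0.75). Il1b, a pyrogenic cytokine, rose by 4.61 in LPS against control (adjusted p = 9.76e-04) and by 3.94 in luteolin + LPS against luteolin (0.00259). Gbp3, an interferon-induced GTPase, differed by -3.15 in luteolin + LPS against LPS (adjusted p = 0.112). These changes share their arrays with the members' changes and are given as a description.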

How the data were processed

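The authors summarised the arrays with the RMA algorithm and deposited linear intensity values per probe set. Study methods describe labelled cRNA, whereas the labels describe sense-strand DNA. All 12 arrays were used. The deposited table has 45101 probe sets, of which 34958 name 1 gene. The set with the highest mean was kept per gene, genes needed a geometric mean signal of 50 or more in a condition (12071 kept), and log2 intensity was modelled by 4 condition means with moderated variances (limma 3.58.1, R 4.3.3). P-values were adjusted by Benjamini-Hochberg over all genes tested at a threshold of 0.05. The script was tested on simulated data. Figures used Python 3.11.15 and matplotlib 3.10.9. Independent RNAs were stated, but p-values measure spread between these arrays only.

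Replicate numbers were checked for pairing. The labels carry the same numbers in every condition. The study's methods describe independent RNAs in triplicate, and its results state that the 12 arrays came from 3 separate stimulation experiments. Deviations from condition means of same-numbered arrays correlated at 0.10 to 0.59 (18 pairs, median 0.42), those of different numbers at -0.56 to 0.48 (36 pairs, median -0.30). Same-numbered arrays were thus more alike at the median, though the ranges overlapped, and a replicate block was fitted as an alternative.

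The members and lists were chosen with earlier results of these data known. Named genes were all 8 members, list genes called or among the 2 largest in size in a comparison, and the 3 genes nearest in pattern to a member. Promoters came from RefSeq, build GRCm38.p6. Alternatives were the block, a random block, single arrays and replicate numbers left out (the last, and single arrays left out together with the floor of 50, chosen after seeing the data), other signal minimums, other probe set rules, array weights and other centring.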

Additional observations from a re-analysis of the deposited data

How the results depend on the processing

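The replicate block left all member calls as they were, with 2 called in both LPS comparisons and Cxcl10 at an adjusted p of 0.124 in luteolin + LPS against LPS. It called 578 of all genes, against 61 without it, in luteolin + LPS against LPS, where a fit of those conditions alone called 0. It called 1338 against 505 in LPS against control, 554 against 218 in luteolin + LPS against luteolin and 34 against 0 in luteolin against control, where array weights called 962. In luteolin + LPS against luteolin, 1 member, Cxcl2, was called with only the compared conditions fitted and 1 with signals under 50 set to 50. Leaving out an array or a replicate number gave 0 to 2 called there and 1 to 2 in LPS against control. Signs turned only for results that were not called in the reported fit. With luteolin + LPS replicate 3 left out and signals under 50 set to 50 (chosen after seeing the data), Cxcl2 was -0.81 in luteolin + LPS against LPS and was called, and -0.81 in the interaction, so that 0 to 1 members were called in luteolin + LPS against LPS over the omissions. By the same omissions, Cxcl1 ranged from -0.011 to 0.18 in luteolin against control and from -0.10 to 0.10 in luteolin + LPS against luteolin. Cxcl2 ranged from -0.19 to 0.12 in luteolin against control, from -0.91 to 0.55 in luteolin + LPS against LPS and from -1.03 to 0.72 in the interaction, and Cxcl16 from -0.019 to 0.041 in luteolin + LPS against LPS. By its _s_at probe set, Cxcl1 was -0.045 in luteolin against control, 0.11 in luteolin + LPS against LPS, 0.24 in luteolin + LPS against luteolin and 0.15 in the interaction. In luteolin + LPS against luteolin it was 0.15 as the mean of its probe sets and 0.022 with arrays centred on their median. The cause was not tested. With signals under 50 set to 50, Cxcl2 in luteolin against control has no value, as all arrays are at the floor. The number of arrays limits precision.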
